A study of Mus musculus with 21 samples.

Results

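This report compares lung epithelial cells of mice at postnatal day 7 (P7) with those at postnatal day 2 (P2). The members are the 2 epithelial libraries at P2 and the 2 at P7, chosen by their labelled stage, of 21 libraries in the series, and every gene of the epithelial tables entered the comparison. All 4 libraries came from C57BL/6 mice carrying the Col1a2-GFP transgene, in which the promoter of a collagen gene drives green fluorescent protein in fibroblasts. Lungs were digested with enzymes, and labelled cells were removed on magnetic beads. The cells kept by flow sorting excluded propidium iodide, lacked CD31 (Pecam1, endothelium), CD45 (Ptprc, leukocytes), Ter119 (erythroid cells) and CD146 (Mcam), lacked GFP and carried Epcam, an adhesion protein of epithelial cells. The P2 and P7 groups shared the strain, the transgene and the sort and differed in age. Their amplified poly(A) RNA was read by 3'SAGE-seq, in which 1 short sequence tag is read per polyadenylated transcript, close to its 3' end, so a value tracks the number of transcripts and not their length.

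In the first week after birth the mouse lung leaves the saccular stage, and the outgrowth of septa begins to divide its air spaces into alveoli. Its distal epithelium holds type 2 cells, which make surfactant, store it in lamellar bodies and can divide, and flat type 1 cells, across which gas is exchanged. Type 2 cells also make lysozyme and present antigen on MHC class II, and they synthesise fatty acids for surfactant phospholipids.

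The deposited values are tag counts scaled for each library, and each value was a whole multiple of what 1 read is worth. The recovered depth was 2282124 and 3338548 reads at P2 (replicates 1 and 2) and 5602529 and 3560074 reads at P7, and 15454 to 17580 genes had a value above 0. Between 16.4% and 18.1% of the reads fell on the top 10 genes of a library. The labels number the replicates and name no animals. The spread behind the p-values is that between libraries of one stage, taken over all 10 epithelial libraries of the series, and may be technical. The 2 libraries of an age were not copies of each other: they differed beyond sampling noise, with a chi-square per degree of freedom of 9.47 at P2 and 10.6 at P7. Pairs of values below are given as replicate 1 and then replicate 2, in deposited units.

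The epithelial label was checked against markers. Cldn18, a claudin of alveolar epithelium, was at 19017 and 20030 at P2 and at 19119 and 15967 at P7, among the most abundant genes of both ages. Epcam, the gene of the positive gate, was at 125 and 226 at P2 and at 67.1 and 354 at P7, so its P7 libraries lay on either side of both P2 libraries. Type 2 markers (Sftpc, Sftpb, Sftpa1, Abca3 and Lamp3) summed to 16524 and 18427 at P2 and to 21002 and 24014 at P7. Sftpc is the largest part of that sum at P7, and Sftpa1 went the other way, from 1033 and 1295 to 879 and 709. Type 1 markers (Ager, Hopx, Pdpn, Aqp5 and Akap5) summed to 2915 and 3072 at P2 and to 2610 and 2732 at P7. For the excluded cell types, the sums of the endothelial markers Pecam1, Cdh5, Kdr and Cldn5 lay between 0.56 and 7.29, with Cldn5 at 0 in all 4 libraries.

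Other excluded types stood apart at P2 (plot of marker sums). Leukocyte markers (Ptprc, Tyrobp, Laptm5 and Coro1a) summed to 103 and 386 at P2 and to 1.31 and 0.56 at P7, and Ptprc and Coro1a were at 0 in both P7 libraries. Erythroid markers summed to 2054 and 7379 at P2 and to 55.5 and 298 at P7. Fibroblast markers (Col1a1, Col1a2, Col3a1, Pdgfra and Dcn) summed to 250 and 82.4 at P2 and to 29.1 and 38.3 at P7. P2 replicate 2 therefore held the most leukocyte and erythroid signal and P2 replicate 1 the most fibroblast signal. In bulk libraries, fewer cells of a type and less RNA per cell cannot be told apart.

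**Figure D1:**
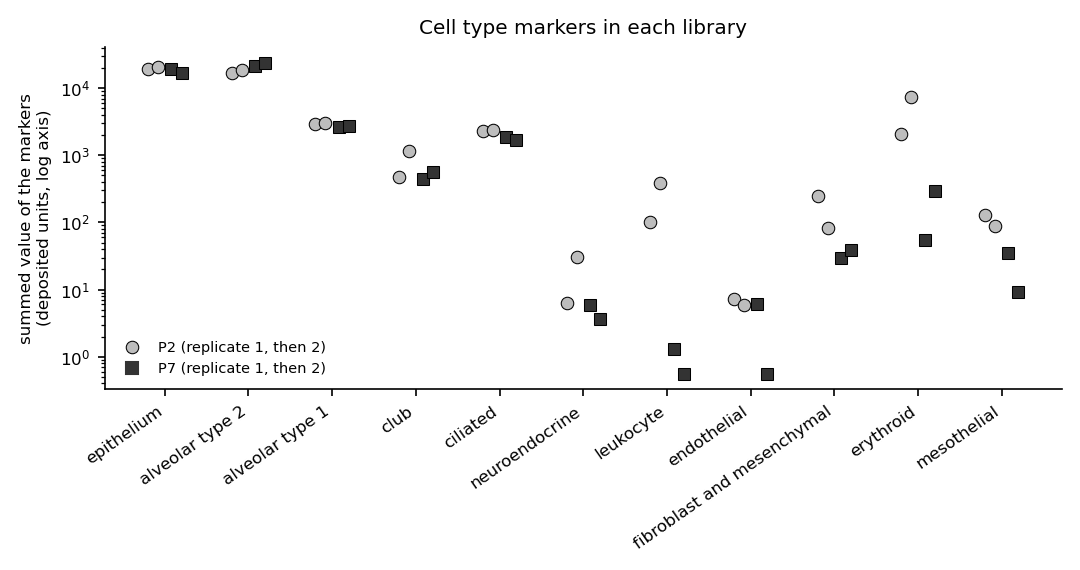
Summed value of the markers of each cell type (deposited units, log axis) in the 2 P2 libraries (circles) and the 2 P7 libraries (squares), replicate 1 to the left of replicate 2. The epithelial and alveolar sums of the 2 ages lie close together, whereas the leukocyte sums fall from 103 and 386 at P2 to 1.31 and 0.56 at P7.

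Of 23869 genes listed, 12143 had a value of at least 3 in at least 2 of the 10 epithelial libraries of the series and were tested. At an adjusted p under 0.05 (limma on log2(value + 1), Benjamini-Hochberg adjustment over all genes tested), 451 genes (3.71%) were called: 188 (1.55%) were higher at P7 and 263 (2.17%) were lower. The median log2 fold change over all genes tested was 0.01. Both P7 libraries lay above both P2 libraries for 22.9% of the genes and below both for 23.4%. The share of rises depended on the scaling: TMM factors gave 268 higher and 247 lower, and equal library totals gave 293 higher and 250 lower, with the median over all genes at 0.07 and 0.071. Leaving out 1 library changed the count by more than 1.5 times in 3 of 4 cases, to 219 without P2 replicate 1, 140 without P7 replicate 1 and 172 without P7 replicate 2, and 26 of the rises and 64 of the falls held whichever library was left out.

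**Figure D2:**
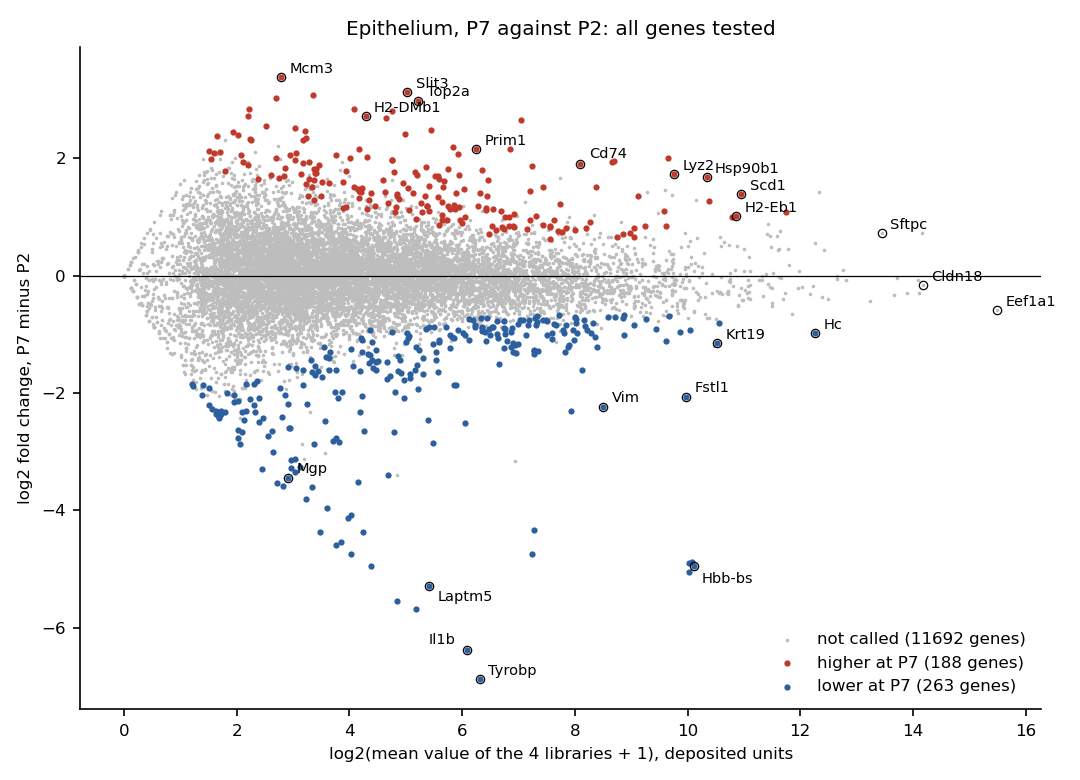
Log2 fold change (P7 minus P2) of each of the 12143 genes tested against the log2 of its mean value over the 4 libraries plus 1, with called rises in red, called falls in blue and some of the genes described in the text circled. The most negative values belong to leukocyte and globin genes, such as Tyrobp at -6.87, and the rises include the division genes Top2a and Mcm3 and the type 2 cell genes Lyz2 and Scd1.

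Genes of DNA replication rose from P2 to P7. Prim1, which encodes the catalytic subunit of the primase that starts new DNA strands, was at 29.2 and 24.1 at P2 and at 139 and 107 at P7. The gene lies on chromosome 10 at 128015168 to 128030037 on the plus strand (GRCm38), and its log2 fold change was 2.16 ± 0.24 (SE) with an adjusted p of 0.000211 by limma. Tk1, the thymidine kinase of S phase, was at 14.1 and 10.5 at P2 and at 65.4 and 80.6 at P7, a change of 2.48 ± 0.43 (adjusted p = 0.00572). Both P7 libraries stood well above both P2 libraries for these genes. Mcm3, a subunit of the replicative helicase, was nearly silent at P2, with 0.456 and 0, and was at 10.1 and 13.1 at P7, a rise of 3.38 ± 0.45 (adjusted p = 0.000991). Gins2 (helicase cofactor), Cdc6 (origin loading) and Lig1 (the ligase that joins Okazaki fragments) rose by 2.69, 2.02 and 2.33 on the log2 scale. Lig1 was at 0.456 and 0.659 at P2, which is 1 and 2 reads, and at 6.16 and 7.55 at P7.

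Of the 40 genes of the DNA replication list, 28 were tested and 12 were under the filter on low values. Among those tested, 8 were called higher (28.6%, against 1.55% of all genes). Both P7 libraries lay above both P2 libraries in 23 (82.1%, against 22.9% of all genes). The median log2 fold change of the 28 was 1.20, and 4 of the 28 passed the filter only through the P7 libraries, none of them among the 8 called. Summed over all listed members, filter or not, the values were 270 and 290 at P2 and 707 and 689 at P7. The members that did not pass ranged down to -0.24. The calls of Prim1 and Mcm3 held whichever library was left out. Tk1 was lost without P7 replicate 2 (adjusted p = 0.0587), Gins2 without either P7 library (0.0721 without replicate 1 and 0.0606 without replicate 2), Cdc6 without P2 replicate 1 (0.116) or P7 replicate 1 (0.16), and Lig1 without P2 replicate 1 (0.0716), P7 replicate 1 (0.0905) or P7 replicate 2 (0.117).

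Mitosis genes rose too. Top2a, the topoisomerase that untangles sister chromosomes, was at 5.01 and 10.5 at P2 and at 66.3 and 63.5 at P7, so its mean was 8.34 times as high. It lies on chromosome 11 at 98992943 to 99024189 on the minus strand, and its log2 fold change was 2.98 ± 0.35 (adjusted p = 0.000328). Smc2, a core subunit of the condensin complexes that compact chromosomes, was at 6.38 and 12.5 at P2 and at 50.2 and 54.3 at P7 (change 2.41 ± 0.34, adjusted p = 0.00134). For both genes the P7 libraries agreed closely and did not overlap with P2. Lower in abundance, Mki67, whose protein Ki-67 marks dividing cells, was at 2.28 and 3.95 at P2 and at 12.9 and 15.9 at P7 (1.93 ± 0.42, adjusted p = 0.0224). Tpx2 (spindle assembly), Racgap1 (cytokinesis) and Ccnb2 (a mitotic cyclin) were at 1.65 or less in each P2 library and at 2.8 to 9.79 in the P7 libraries, and rose by 2.55, 1.98 and 2.40 on the log2 scale.

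The mitosis list has 63 genes, of which 61 are listed in the tables and 34 were tested. Among those, 7 were called higher (20.6%, against 1.55% of all genes), and the median log2 fold change was 1.12. Both P7 libraries lay above both P2 libraries in 29 of the 34 (85.3%, against 22.9% of all genes). As for replication, 4 members passed the filter only through the P7 libraries and were not called. Summed over all listed members the values were 594 and 708 at P2 and 1069 and 1071 at P7. Top2a and Smc2 were called whichever library was left out, whereas Tpx2, Mki67, Racgap1 and Ccnb2 were each lost without P2 replicate 1 (adjusted p = 0.129, 0.129, 0.136 and 0.174), without P7 replicate 1 (0.0939, 0.102, 0.111 and 0.18) and without P7 replicate 2 (0.134, 0.15, 0.219 and 0.15). With a filter of 10 in place of 3 the count of called members was 3, and with equal library totals it was 12.

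Promoters of mitosis genes are known to combine CCAAT boxes, bound by the factor NF-Y, with a cell cycle homology region through which the genes are held silent outside the late cell cycle. The RefSeq promoters (GRCm38.p6, 250 bases before to 50 after the start) of the called mitosis members are shown because these members rose together. Of the 7 called members 6 had an entry, and the 4 of those with the smallest p are printed. The 250 bases before the start are given, 5′ to 3′ on the gene's strand, with exact matches in capitals. The strings searched were CCAAT or its complement ATTGG, and TTTGAA, its complement TTCAAA or TTTAAA, in all 300 bases, and none of the printed matches of the 2 motifs overlap. The windows are chr11:99024190-99024439 (minus strand) for Top2a, chr4:52438971-52439220 (plus) for Smc2, chr7:135716380-135716629 (minus) for Mki67 and chr15:99651657-99651906 (minus) for Racgap1.
Top2a promoter: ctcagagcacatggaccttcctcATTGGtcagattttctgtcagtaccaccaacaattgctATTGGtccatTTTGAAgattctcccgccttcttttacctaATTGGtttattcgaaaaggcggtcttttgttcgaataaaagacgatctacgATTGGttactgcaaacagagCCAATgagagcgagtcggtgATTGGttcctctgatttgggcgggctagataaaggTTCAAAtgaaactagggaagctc
Smc2 promoter: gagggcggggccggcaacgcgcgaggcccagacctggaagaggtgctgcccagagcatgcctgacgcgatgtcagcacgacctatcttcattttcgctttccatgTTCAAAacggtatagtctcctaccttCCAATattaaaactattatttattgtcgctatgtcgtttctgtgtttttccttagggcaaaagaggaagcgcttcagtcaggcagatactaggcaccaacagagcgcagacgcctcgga
Mki67 promoter: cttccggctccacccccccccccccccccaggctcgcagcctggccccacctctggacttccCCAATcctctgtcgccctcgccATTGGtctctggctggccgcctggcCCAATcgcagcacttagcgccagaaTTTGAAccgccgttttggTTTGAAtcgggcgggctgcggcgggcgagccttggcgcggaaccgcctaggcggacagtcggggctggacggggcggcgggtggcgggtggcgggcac
Racgap1 promoter: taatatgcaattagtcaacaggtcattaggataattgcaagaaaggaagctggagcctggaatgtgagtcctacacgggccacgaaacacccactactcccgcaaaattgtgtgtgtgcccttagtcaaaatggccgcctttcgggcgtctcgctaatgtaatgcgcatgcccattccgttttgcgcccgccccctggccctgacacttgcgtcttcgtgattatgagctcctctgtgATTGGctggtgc
All 6 windows held a CCAAT box and all 6 held the homology string, counting matches after the start. Of 32841 promoters in the table, 37.4% held the first, 27.6% held the second and 10.7% held both. Top2a carried CCAAT matches that begin 227, 189, 149, 98, 78 and 58 bases before the start and a TTCAAA 23 bases before it. Mki67 carried its homology strings 116 and 98 bases before the start, downstream of CCAAT matches at 188, 166 and 141 bases. In Racgap1 the single CCAAT match lies 12 bases before the start, and its homology string lies after the start, outside the printed bases. A match is a description of letters and not of a bound site.

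**Figure D3:**
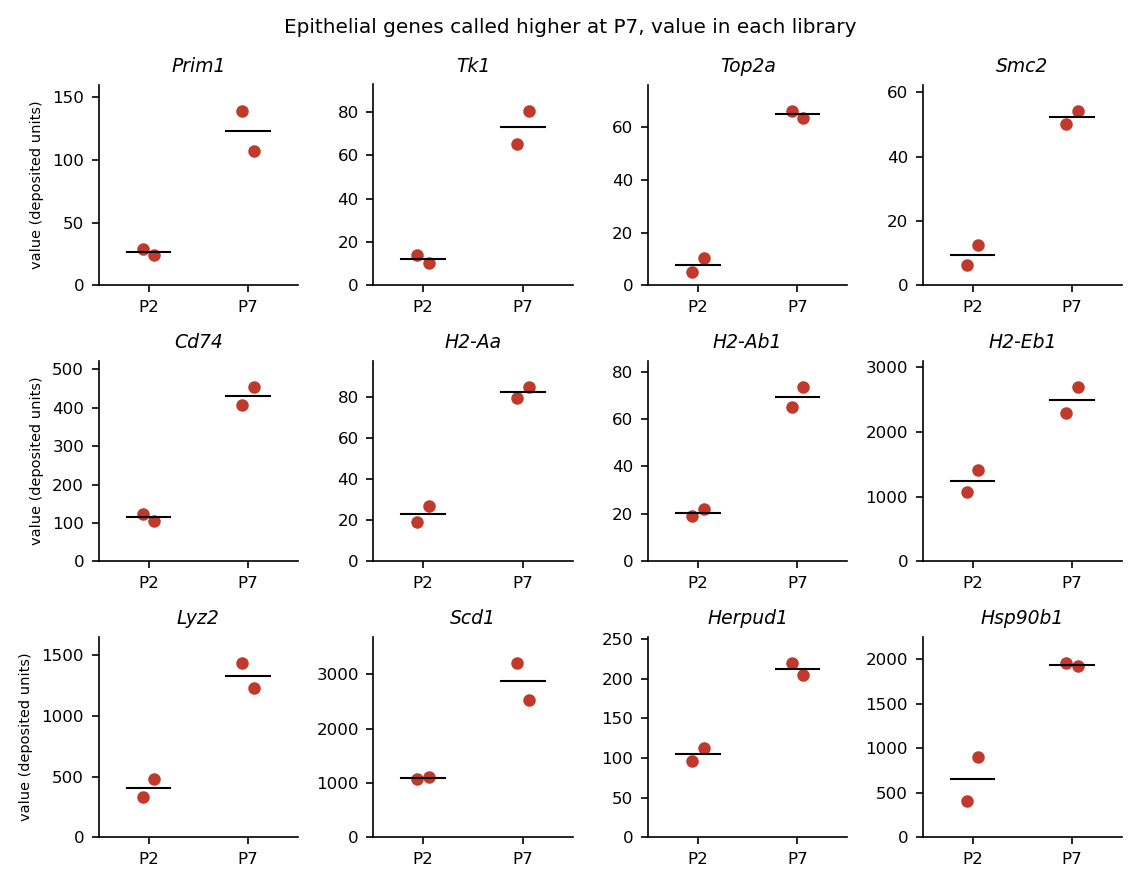
Value in each library (deposited units, axis from 0) of 12 genes called higher at P7, with a bar at the mean of the 2 libraries of each age. In every panel both P7 libraries lie above both P2 libraries, with the P2 libraries of Hsp90b1 the farthest apart, at 407 and 897.

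MHC class II genes rose as well. Class II molecules are pairs of an alpha and a beta chain that present peptides to helper T cells, the invariant chain Cd74 guides them to endosomes, and H2-DM loads the peptide there. Cd74 was at 124 and 106 at P2 and at 408 and 455 at P7, a log2 fold change of 1.90 ± 0.21 (adjusted p = 0.000255). The alpha chain gene H2-Aa was at 19.1 and 27 at P2 and at 79.8 and 85.1 at P7 (1.81 ± 0.28, adjusted p = 0.00216). Its partner, the beta chain gene H2-Ab1, was at 19.1 and 22.1 at P2 and at 65 and 73.6 at P7 (1.70 ± 0.30, adjusted p = 0.00653). In these 3 genes the ages were separated by far more than the libraries of one age. H2-Eb1, another beta chain gene and the one with the highest values of the list, was at 1067 and 1412 at P2 and at 2287 and 2693 at P7 (1.01 ± 0.23, adjusted p = 0.0273). H2-DMb1 was at 2.28 and 6.92 at P2 and at 33.1 and 31.9 at P7 (2.72 ± 0.48, adjusted p = 0.00668).

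Of the 15 class II genes 13 were tested, with a median of 1.01. Of those, 5 rose (38.5%, against 1.55% of all genes), and Ctss fell (7.69%, against 2.17%). Ctss encodes cathepsin S, a protease that trims the invariant chain and is abundant in macrophages. It was at 14.1 and 47.1 at P2 and at 0 in both P7 libraries, at least 91.1-fold lower against a floor of 3 reads over the P7 group. The leukocyte marker sum was 103 and 386 at P2 and 1.31 and 0.56 at P7, where Ptprc and Coro1a were at 0. The whole leukocyte list summed to 227 and 963 at P2 and to 80.9 and 62.7 at P7. The part of leukocytes in the changes of class II genes was not tested. Ciita, the master regulator of class II transcription, was at 11.9 and 16.8 at P2 and at 35.1 and 34.7 at P7 and did not pass (adjusted p = 0.15). Ciita is outside the naming rule and was chosen after its values were seen. Cd74, H2-Aa and Ctss were called whichever library was left out. H2-Ab1 was lost without P7 replicate 2 (adjusted p = 0.0628), and H2-DMb1 and H2-Eb1 were lost without P2 replicate 1 (0.0593 and 0.195), P7 replicate 1 (0.0721 and 0.0881) or P7 replicate 2 (0.0527 and 0.162). Class II genes are near-identical in parts and vary between strains, so reads could be shared between them. Of 20 tested genes of MHC class I and its peptide loading, 1 was called higher (5%, against 1.55% of all genes). That gene, H2-K1, a class I heavy chain, rose by 0.90 from 42.4 and 44.2 to 99.2 and 67.1 (adjusted p = 0.0464). It was lost without P2 replicate 1 (0.169), P2 replicate 2 (0.101) or P7 replicate 1 (0.346), and the list's median was 0.34.

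H2-DMb1, H2-Ab1, H2-Aa and H2-Eb1 lie in that order within the class II region of chromosome 17 (GRCm38), from 34153072, the start of H2-DMb1, to 34316674, the end of H2-Eb1. Class II promoters are known to share an element called the Y box, whose core is a CCAAT box. The RefSeq promoters of the 3 called members with an entry are printed as above, with CCAAT or ATTGG in capitals, because these members rose together. The windows are chr17:34287824-34288073 (minus strand) for H2-Aa, chr17:34152941-34153190 (plus) for H2-DMb1 and chr17:34305617-34305866 (plus) for H2-Eb1.
H2-Aa promoter: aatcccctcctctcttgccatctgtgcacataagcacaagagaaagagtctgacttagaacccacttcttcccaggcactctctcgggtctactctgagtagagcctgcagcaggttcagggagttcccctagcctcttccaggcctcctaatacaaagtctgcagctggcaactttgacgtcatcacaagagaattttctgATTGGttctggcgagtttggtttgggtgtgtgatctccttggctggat
H2-DMb1 promoter: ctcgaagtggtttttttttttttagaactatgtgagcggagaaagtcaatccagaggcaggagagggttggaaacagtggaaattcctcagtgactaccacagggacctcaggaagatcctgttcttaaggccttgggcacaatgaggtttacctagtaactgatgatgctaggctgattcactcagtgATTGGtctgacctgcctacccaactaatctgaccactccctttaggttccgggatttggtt
H2-Eb1 promoter: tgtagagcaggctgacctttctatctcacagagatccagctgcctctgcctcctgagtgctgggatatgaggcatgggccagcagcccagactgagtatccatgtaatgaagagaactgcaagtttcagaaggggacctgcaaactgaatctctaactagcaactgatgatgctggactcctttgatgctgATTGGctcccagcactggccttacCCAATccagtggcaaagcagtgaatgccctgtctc
Each of the 3 held the string in the ATTGG orientation at a like distance, 48 bases before the start in H2-Aa, 61 in H2-DMb1 and 59 in H2-Eb1, and H2-Eb1 had another match 35 bases before the start. Distances are from the RefSeq start. That of H2-DMb1 lies inside the gene as annotated by GENCODE, whose start is the one given above, so its match lies before the first start and after the second. The homology string of the mitosis genes was in 0 of these 3 windows of 300 bases, which says only that those letters are not there.

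Type 2 cell genes changed unevenly. Lyz2, a lysozyme, was at 335 and 479 at P2 and at 1439 and 1227 at P7, a log2 fold change of 1.73 ± 0.19 (adjusted p = 0.000197). Its neighbour on chromosome 10, Lyz1, was at 1038 and 1360 at P2 and at 2463 and 2250 at P7 (0.99 ± 0.17, adjusted p = 0.00634). The 2 lysozyme genes are close copies whose reads could be split between them. Lyz2 is made by macrophages as well as by type 2 cells. The leukocyte marker sums given above were at most 1.31 at P7, and the whole leukocyte list summed to 80.9 and 62.7 at P7. Which cells carried the rise of Lyz2 was not tested. Scd1, the desaturase that makes oleate and palmitoleate, was at 1077 and 1105 at P2 and at 3209 and 2532 at P7 (1.39 ± 0.18, adjusted p = 0.000803). Its paralogue Scd3 rose from 73.8 and 83 to 227 and 202 (1.44 ± 0.20, adjusted p = 0.0011), with the same caution about shared reads. Hc, which encodes complement C5, fell by 0.98 on the log2 scale, from 6889 and 6158 to 2876 and 3795 (adjusted p = 0.0117). Lyz2, Scd1 and Scd3 were called whichever library was left out, whereas Lyz1 and Hc were lost without P2 replicate 1 (0.0794 and 0.099) or P7 replicate 1 (0.0669 and 0.126).

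In 15 of 27 tested type 2 genes (55.6%, against 22.9% of all genes) both P7 libraries lay above both P2 libraries, and the median was 0.34. Of the 27, 3 rose (11.1%, against 1.55% of all genes) and 1 fell (3.7%, against 2.17%). The number that rose was 8 with TMM scaling, 9 with equal library totals, 7 with a filter of 10, 5 by edgeR, 9 by DESeq2 and 6 without P2 replicate 2. Sftpc, the surfactant protein C gene, was at 7671 and 9344 at P2 and at 13388 and 14481 at P7, a change of 0.72 ± 0.20 that did not pass with limma (adjusted p = 0.0598) and passed with edgeR (0.0106). Lamp3, a lamellar body membrane protein, was at 125 and 186 at P2 and at 238 and 275 at P7 (adjusted p = 0.0741). Surfactant protein B overlapped between the ages, with Sftpb at 7354 and 7272 and then at 6036 and 8059. The surfactant protein A gene Sftpa1 was lower in both P7 libraries, at 1033 and 1295 and then at 879 and 709. It did not pass (log2 fold change -0.55, adjusted p = 0.112 by limma). Among 27 tested genes of surfactant and lamellar bodies, limma called 0 at adjusted p under 0.05, with 5 higher and 3 lower at unadjusted p under 0.05, while edgeR called 2 higher and 1 lower (against 1.94% and 2.86% of all genes). The median of that list was 0.03.

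A few genes of fatty acid synthesis and of the endoplasmic reticulum rose. Of 25 tested fatty acid synthesis genes, Scd1 and Fads1 (a desaturase of polyunsaturated fatty acids) rose (8%, against 1.55% of all genes). In that list 15 (60%, against 22.9% of all genes) had non-overlapping higher values at P7, and the median was 0.30. Both figures include 2 members that passed the filter only through the P7 libraries, neither of them called. Fads1 was at 48.3 and 38.2 at P2 and at 77.9 and 95.7 at P7 (0.99 ± 0.25, adjusted p = 0.042). Acoxl, an acyl-CoA oxidase-like gene in none of the lists, rose from 62.4 and 64.3 to 208 and 265 (1.87 ± 0.20, adjusted p = 0.000147). Hsp90b1, the endoplasmic reticulum chaperone GRP94, was at 407 and 897 at P2 and at 1960 and 1918 at P7 (1.68 ± 0.34, adjusted p = 0.014). Herpud1, a component of the pathway that removes misfolded proteins from this compartment, was at 96.2 and 113 at P2 and at 220 and 205 at P7 (1.02 ± 0.17, adjusted p = 0.00453). The P2 libraries of Hsp90b1 differed more than those of Herpud1, but neither gene overlapped between the ages.

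These were the 2 called members of 23 tested chaperone genes of the endoplasmic reticulum (8.7%, against 1.55% of all genes called higher). Of the 23, 17 had non-overlapping higher values at P7 (73.9%, against 22.9% of all genes), and the median was 0.48. Equal library totals called 6 of the 23, and TMM scaling and DESeq2 called 4 each. Tusc3, a subunit of the complex that glycosylates new proteins, rose by 1.85 (9.57 and 27.4 to 68.5 and 55.1, adjusted p = 0.0119), and Ctsc, the lysosomal protease cathepsin C, by 1.50 (148 and 198 to 521 and 455, adjusted p = 0.000879). The calls of Acoxl and Ctsc held whichever library was left out. Herpud1 was lost without P7 replicate 1 (0.0523). Hsp90b1 and Tusc3 were lost without P2 replicate 1 (0.132 and 0.0714), P7 replicate 1 (0.0936 and 0.111) or P7 replicate 2 (0.0751 and 0.0512). Fads1 was lost without P2 replicate 1 (0.0774), P2 replicate 2 (0.16), P7 replicate 1 (0.114) or P7 replicate 2 (0.236).

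Of 25 tested type 1 cell genes, 1 rose (4%, against 1.55% of all genes) and 2 fell (8%, against 2.17%), and the median was -0.16. Of these 3 calls 1 held whichever library was left out, and it is neither of those described here. Vegfa, the endothelial growth factor, fell by 0.97 on the log2 scale, from 488 and 336 to 260 and 163 (adjusted p = 0.0483). Igfbp2, an insulin-like growth factor binding protein, rose by 2.47, from 0.912 and 2.97 to 17.6 and 11.5 (adjusted p = 0.0109). The defining markers Ager and Hopx overlapped between the ages: Ager was at 383 and 549 and then at 462 and 353, and Hopx at 51.5 and 54 and then at 62.2 and 47. Vegfa was lost without P2 replicate 1 (0.3) or P7 replicate 2 (0.325), and Igfbp2 without P2 replicate 1 (0.0776) or P7 replicate 1 (0.125).

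Among 20 general epithelial genes, Krt19 fell (5%, against 2.17% of all genes). This keratin of simple epithelia was at 2139 and 1936 at P2 and at 929 and 910 at P7 (log2 fold change -1.15 ± 0.17, adjusted p = 0.00156), and the call held whichever library was left out. Krt19 is expressed by mesothelium too, and the mesothelial gene Msln was at 128 and 88.3 at P2 and at 34.7 and 8.95 at P7 (fell by 2.51, adjusted p = 0.00768). Msln was lost without P2 replicate 1 (0.069) or P7 replicate 2 (0.0543). The mesothelial markers Upk3b and Wt1 were at or near 0 in all 4 libraries, with a highest value of 0.456 for Upk3b and 0 for Wt1. The part of mesothelium in the fall of Krt19 was not tested. In the airway lists, Hp (haptoglobin) was the 1 club cell gene called of 18 tested, falling by 1.32 from 152 and 199 to 62.8 and 76.4 (adjusted p = 0.00413, and 0.0571 without P7 replicate 1). In that list 4 genes were lower by DESeq2, 2 by edgeR and 4 without P2 replicate 1. Limma called 0 of 17 tested ciliated cell genes, with 6 lower at unadjusted p under 0.05, and edgeR called 0, with 7 lower at unadjusted p under 0.05. The ciliated list had a median of -0.42.

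Of 38 tested transcription factors of lung epithelium, Sox11, a factor of embryonic progenitors, fell (2.63%, against 2.17% of all genes). It was at 2.73 and 4.28 at P2 and at 0.374 and 0 at P7 (fell by 1.92, adjusted p = 0.0304), and was lost without P2 replicate 1 (0.0547), P2 replicate 2 (0.104), P7 replicate 1 (0.102) or P7 replicate 2 (0.185). Nkx2-1, the master factor of lung epithelial identity, was at 1218 and 1467 at P2 and at 904 and 833 at P7 and did not pass (adjusted p = 0.0565). Nkx2-1 is outside the naming rule and was chosen after its values were seen. The list's median was 0.15.

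**Figure D4:**
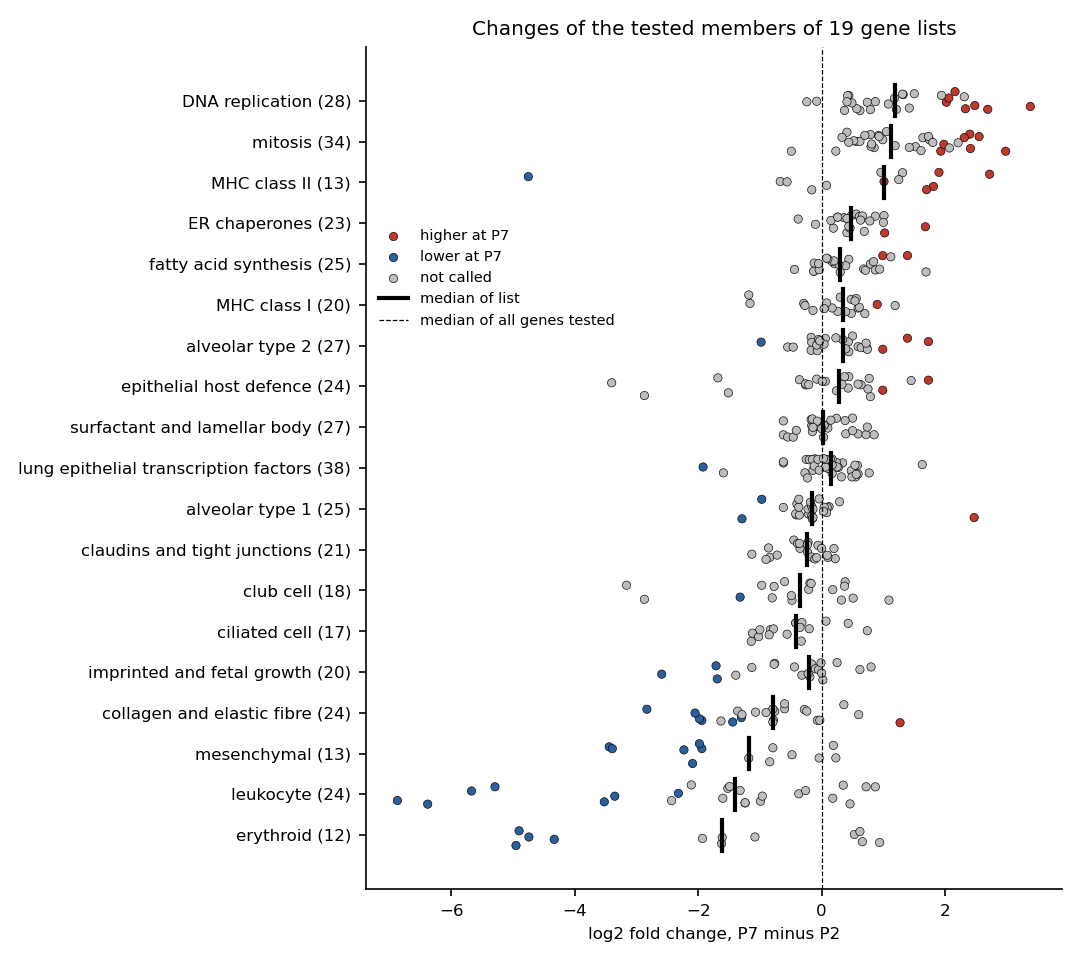
Log2 fold change (P7 minus P2) of each tested member of 19 gene lists, with the number tested in brackets, called rises in red, called falls in blue, a bar at the median of the list and a dashed line at the median of all genes tested. The replication, mitosis and class II medians lie at 1.20, 1.12 and 1.01, and the mesenchymal, leukocyte and erythroid medians at -1.18, -1.41 and -1.62.

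The deepest falls were in leukocyte genes. Tyrobp, which couples activating receptors of myeloid cells to their kinases, was at 63.4 and 251 at P2 and at 0.187 and 0 at P7, that is 139 and 762 reads against 1 and 0 (log2 fold change -6.87 ± 0.54, adjusted p = 2.59e-05). Laptm5, a lysosomal protein of blood cells, was at 38.7 and 126 at P2 and at 1.12 and 0.56 at P7 (-5.29 ± 0.46, adjusted p = 3.34e-05). The cytokine gene Il1b was at 34.2 and 232 at P2 and at 0.187 and 0 at P7 (-6.38 ± 0.57, adjusted p = 3.34e-05). P2 replicate 2 was the highest library in each case, and P2 replicate 1 was still far above both P7 libraries. Slfn2 (T cell and monocyte quiescence) and Clec4n (the macrophage and dendritic cell receptor Dectin-2) were at 0 in both P7 libraries, at least 210-fold and 166-fold lower against a floor of 3 reads over the P7 group.

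Of 24 tested leukocyte genes, 7 fell (29.2%, against 2.17% of all genes), with a median of -1.41. edgeR called 12 lower, against 2.86% of all genes by edgeR. Of the 24, 1 passed the filter only through the P2 libraries and was not called. The change was positive in 5, and in 2 (8.33%, against 22.9% of all genes) both P7 libraries lay above both P2 libraries. Summed over all listed members, filter or not, the values were 227 and 963 at P2 and 80.9 and 62.7 at P7. The B cell gene Ms4a1 (7.75 and 18.5 at P2, 0 and 0.839 at P7) and the chemokine gene Ccl5 (13.2 and 66.2 at P2, 0 and 0 at P7) also fell, with adjusted p = 0.0018 and 0.00203. Cd274, the interferon-induced checkpoint ligand PD-L1, fell from 3.19 and 5.27 to 0 and 0 (adjusted p = 0.0162). The calls of Tyrobp, Laptm5, Il1b, Slfn2, Clec4n, Ms4a1 and Ccl5 held whichever library was left out, whereas Cd274 was lost without P2 replicate 2 (0.074), P7 replicate 1 (0.0978) or P7 replicate 2 (0.0859). Fermt3, an integrin activator of blood cells, fell by 2.85 (59.3 and 96.9 to 8.97 and 10.4, adjusted p = 0.00129). Pf4, a platelet chemokine, fell by 2.30 (185 and 644 to 80.1 and 60.2, adjusted p = 0.042) and was lost without P2 replicate 2 (0.232), P7 replicate 1 (0.146) or P7 replicate 2 (0.204).

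Globin genes fell as well, though less far than Tyrobp and Il1b, and kept reads in both P7 libraries. Hbb-bs was at 929 and 3326 at P2 and at 23 and 134 at P7 (log2 fold change -4.95 ± 0.71, adjusted p = 0.0015), and Hba-a1 at 125 and 457 and then at 4.11 and 14.8 (-4.74 ± 0.67, adjusted p = 0.00134). Hbb-bt and Hba-a2 were called too, and Hbb-b1 and Hbb-b2 outside the list had values near those of Hbb-bs. The beta globin genes are near-identical to each other, as are the alpha globin genes, so reads could be shared within each kind. The 4 calls (33.3% of 12 tested erythroid genes, against 2.17% of all genes) are therefore not 4 separate measurements. Within each age the library with more globin reads was replicate 2. Alas2, the erythroid enzyme of haem synthesis, was at 1.82 and 3.3 at P2 and at 0 and 0.28 at P7 (adjusted p = 0.0786). The erythroid list did not move as a whole. Both P7 libraries lay below both P2 libraries in 7 of the 12 genes (58.3%) and above them in 4 (33.3%). Over all genes these shares were 23.4% and 22.9%. Of the 12, 2 passed the filter only through the P2 libraries, and neither was called. Limma called 0 of the 12 higher and edgeR called 1 higher.

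**Figure D5:**
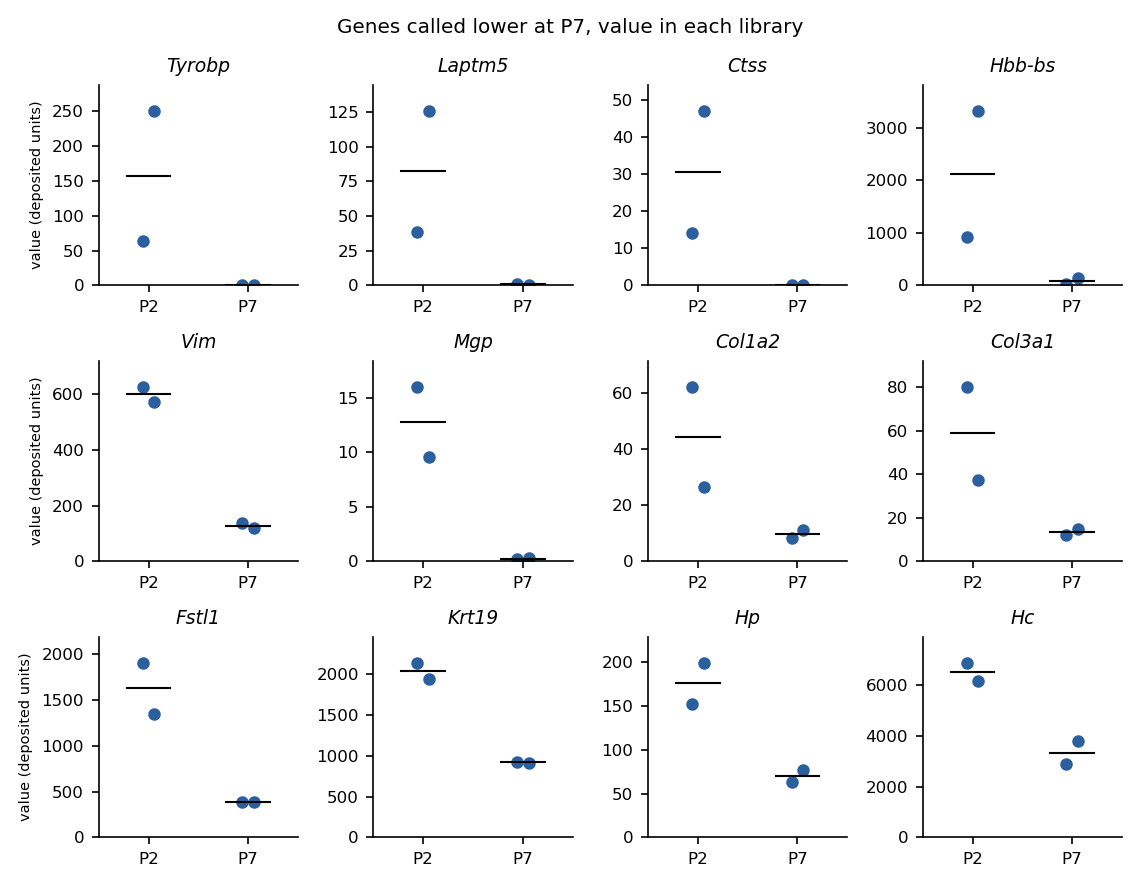
Value in each library (deposited units, axis from 0) of 12 genes called lower at P7, with a bar at the mean of the 2 libraries of each age. Tyrobp, Laptm5, Ctss and Hbb-bs are highest in P2 replicate 2, Col1a2 and Col3a1 in P2 replicate 1, and Vim and Krt19 vary little within an age.

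Mesenchymal genes fell, as did Fstl1, which was the 1 called of 28 tested genes of hedgehog and BMP signalling (3.57%, against 2.17% of all genes). Vim, the intermediate filament vimentin, lies on chromosome 2 at 13573927 to 13582826 on the plus strand and was at 626 and 571 at P2 and at 137 and 118 at P7. Its log2 fold change was -2.23 ± 0.17 (adjusted p = 2.44e-05). Fstl1, a secreted antagonist of BMP signalling on chromosome 16 at 37776873 to 37836514, was at 1904 and 1345 at P2 and at 381 and 386 at P7 (-2.06 ± 0.18, adjusted p = 3.34e-05). Libraries of one age were close together for Vim, and for Fstl1 at P7 but less so at P2. Mgp (matrix Gla protein, an inhibitor of calcification) was at 16 and 9.56 at P2 and at 0.187 and 0.28 at P7, and Zeb2, a factor of epithelial to mesenchymal transition, at 21.9 and 21.1 and then at 4.67 and 3.92. Dcn, the proteoglycan decorin, was at 85.2 and 9.23 at P2 and at 1.12 and 2.8 at P7, a difference carried mostly by P2 replicate 1.

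Of 13 tested mesenchymal genes, 6 fell (46.2%, against 2.17% of all genes), with a median of -1.18. Of the 13, 1 passed the filter only through the P2 libraries and was not called. Sparc, a secreted matrix glycoprotein and the most abundant of the 13, overlapped between the ages at 14006 and 13467 and then at 13630 and 13028. Vim, Fstl1, Mgp and Zeb2 were called whichever library was left out, whereas Dcn was lost without P2 replicate 1 (adjusted p = 0.0685) or P7 replicate 1 (0.128). The fibroblast marker sums given above were 250 and 82.4 at P2 and 29.1 and 38.3 at P7, and Pdgfra was at 0.456, 0, 0 and 1.68. Col1a2, Col3a1 and Dcn are part of those sums and of this list, so the sums are not a separate measure of it. The leukocyte marker sums, 103 and 386 at P2 and 1.31 and 0.56 at P7, were lower at P7 too, and Vim and Zeb2 are also expressed by leukocytes. The part of these cells in the falls was not tested. The ratio of the P2 libraries differed between genes: Vim and Zeb2 were near even between P2 replicates 1 and 2, whereas Dcn, Col1a2 and Col3a1 were higher in replicate 1.

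Genes of collagen and elastic fibres fell in part, with 25% of those tested called lower, against 2.17% of all genes. Of the 24 tested, 1 passed the filter only through the P2 libraries and was not called. The fibrillar collagen genes Col1a2 (62.4 and 26.7 to 8.22 and 11.2) and Col3a1 (80.2 and 37.6 to 12.1 and 15.1) fell by 1.98 and 1.94, and Eln, which encodes elastin, fell by 2.83 (26.9 and 20.1 to 1.49 and 3.64). Col18a1, a collagen of basement membranes, fell by 1.30 (192 and 145 to 73.6 and 61.8, adjusted p = 0.0244), and Fn1, fibronectin, fell by 2.05 (40.1 and 18.5 to 4.86 and 6.99, adjusted p = 0.0408). Col4a1, the basement membrane collagen chain, went the other way, from 715 and 825 to 2223 and 1547 (1.27 ± 0.22, adjusted p = 0.00556). Of 24 tested members 6 fell (25%) and Col4a1 rose, with a median of -0.79, and 0 of these calls held under every omission of 1 library. Without P7 replicate 1, each of the 6 genes named was lost, at adjusted p = 0.113 (Col1a2), 0.0571 (Col3a1), 0.105 (Eln), 0.0909 (Col18a1), 0.229 (Fn1) and 0.0776 (Col4a1). Without P2 replicate 1, Col1a2, Eln, Col18a1, Fn1 and Col4a1 were lost, at 0.119, 0.0714, 0.159, 0.265 and 0.0552, and without P7 replicate 2, Col18a1 and Fn1, at 0.15 and 0.114.

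Fetal growth genes fell in 3 of 20 tested cases (15%, against 2.17% of all genes), with a median of -0.20. Mest, an imprinted gene of fetal mesoderm, was at 45.1 and 33.6 at P2 and at 9.71 and 12.9 at P7 (fell by 1.71, adjusted p = 0.00843). H19, an imprinted non-coding RNA, was at 16 and 7.58 and then at 2.99 and 0 (fell by 2.59, adjusted p = 0.0166), and Igf2bp1, a fetal RNA-binding protein, at 14.6 and 15.2 and then at 3.18 and 4.76 (fell by 1.69, adjusted p = 0.017). Without P2 replicate 1 each was lost, at 0.0714 (Mest), 0.132 (H19) and 0.0688 (Igf2bp1). Mest and Igf2bp1 were lost without P7 replicate 1 (0.0902 and 0.148), H19 without P7 replicate 2 (0.128) and Igf2bp1 without P2 replicate 2 (0.057).

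Several signalling genes outside these groups were among the largest changes. Slit3, a secreted guidance ligand for Robo receptors, was at 8.2 and 3.63 at P2 and at 46.5 and 68 at P7 (3.13 ± 0.47, adjusted p = 0.002). Ptgs2, the inducible prostaglandin synthase COX-2, was at 16.9 and 28.7 at P2 and at 103 and 89.2 at P7 (2.07 ± 0.29, adjusted p = 0.00134). Tnfrsf21, the death receptor DR6, was at 76.1 and 63.9 at P2 and at 11.8 and 12 at P7 (-2.46 ± 0.21, adjusted p = 3.34e-05). Pbx4, a homeobox factor, fell by 1.67 (62.4 and 55.7 to 16.6 and 19, adjusted p = 0.000618), and Fam107b fell by 1.64 (65.2 and 76.8 to 22.4 and 21.5, adjusted p = 0.000531). All 5 genes were called whichever library was left out. The immediate early genes Jun (346 and 322 to 547 and 500) and Egr1 (144 and 151 to 238 and 219) rose by 0.65 and 0.63, with adjusted p = 0.0426 and 0.0453. They were the 2 called of 27 tested (7.41%, against 1.55% of all genes). Neither Jun nor Egr1 held without P2 replicate 1 (0.122 and 0.182), P2 replicate 2 (0.143 and 0.093), P7 replicate 1 (0.227 and 0.233) or P7 replicate 2 (0.118 and 0.128). Alb, the plasma protein albumin, was at 21 and 17.5 at P2 and at 111 and 74.1 at P7 (2.19 ± 0.34, adjusted p = 0.00237, and 0.0502 without P7 replicate 1).

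In the combined glycolysis and hypoxia list, calls went both ways. Pgk1 and Ldha, enzymes of glycolysis, rose by 1.08 (21 and 26.7 to 61.5 and 42.5) and 0.95 (85.7 and 115 to 210 and 176), whereas Egln3, an oxygen-sensing prolyl hydroxylase induced by hypoxia, fell by 2.00 (5.47 and 3.95 to 0.56 and 0.28) and Vegfa fell as given above. That is 2 higher and 2 lower of 29 tested (6.9% each way, against 1.55% higher and 2.17% lower of all genes). Of these, Pgk1, Ldha and Egln3 were lost without P2 replicate 1 (0.165, 0.244 and 0.0946) or P7 replicate 1 (0.249, 0.24 and 0.0815), and Ldha and Egln3 without P7 replicate 2 (0.106 and 0.116). Respiratory chain genes had a median of 0.20 over 71 tested, with Uqcrfs1 (0.94, adjusted p = 0.0223) and Atp5a1 (0.76, adjusted p = 0.0356) called higher. That is 2.82% of the list, against 1.55% of all genes. Uqcrfs1 was lost without P2 replicate 1 (0.153), P7 replicate 1 (0.113) or P7 replicate 2 (0.118), and Atp5a1 without P2 replicate 1 (0.2), P2 replicate 2 (0.051), P7 replicate 1 (0.104) or P7 replicate 2 (0.203).

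Cytosolic ribosomal protein genes had a median of 0.07 over 79 tested, of which 3 rose (3.8%, against 1.55% of all genes). Rplp1 and Rplp2, the acidic stalk proteins of the large subunit, were at 22.3 and 69.2 (Rplp1) and 170 and 537 (Rplp2) at P2 and at 219 and 145 and 1526 and 969 at P7. Rps28, of the small subunit, was at 53.8 and 137 at P2 and at 286 and 211 at P7. In all 3 P2 replicate 1 was the lowest library, and Wdr89, a gene of no list, showed the same order (92.1 and 280 at P2, 806 and 486 at P7). Without P2 replicate 1 the 4 calls were lost, at 0.0819 (Rplp1), 0.241 (Rplp2), 0.159 (Rps28) and 0.132 (Wdr89). Without P7 replicate 1 they were lost at 0.117, 0.218, 0.18 and 0.165 in the same order, and Rplp2 and Rps28 were lost without P7 replicate 2 (0.0682 and 0.0583).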

How the data were processed

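Sorted epithelial cells at P2 and P7 were measured in 2 libraries each. The authors deposited, for each library, a table of normalised signal values, which are tag counts over 1 factor for that library. Bowtie2 2.2.5, R 3.4.0 and mm10 are named in the submitters' processing notes, while the normalisation method is not given in the sources. Dividing each table by the value of 1 read gave whole reads for 100% of values above 0 (tolerance 0.01 read, largest deviation 4.22e-05). A floor of 3 reads is 0.56 to 1.37 value units per library, and floors cover counting error only, since amplified reads carry no molecular identifiers.

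The main two-sided test, on log2(value + 1), was that of limma 3.58.1 in R 4.3.3, allowing the variance to follow the mean, over genes at 3 or more in at least 2 of the 10 epithelial libraries. One mean was fitted per stage with 5 residual degrees of freedom, the other stages giving only the spread. Because of the added 1, the fold changes given understate those of low genes. Alternatives were edgeR 4.0.16 and DESeq2 1.42.0 on recovered reads, TMM or equal-total scaling, pseudocounts of 0.5 and 5, other filters, the 4 libraries alone, a replicate block and each library left out.

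The members and the 46 gene lists were chosen with earlier results of these data known. Of 1280 list genes 1245 matched by symbol and 5 by synonym. Named genes were the 15 largest rises and falls and the 10 smallest p-values each way (higher group's mean 50 or more, no predicted genes), up to 6 called members of a list by p, or 2 by change where none passed, the sort genes and the 10 most abundant genes at each age. Promoters came from RefSeq (GRCm38.p6) and gene positions from GENCODE vM21 (GRCm38). The Ter119 antigen gene was not analysed here, and 1 called type 1 cell gene is not reported here.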

Additional observations from a re-analysis of the deposited data

How the results depend on the processing

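The main counts were 451 genes called (188 higher, 263 lower), with 8 DNA replication, 7 mitosis and 5 MHC class II members higher and 7 leukocyte, 4 erythroid, 6 mesenchymal and 6 collagen and elastic fibre members lower. Fitting only the 4 libraries, which leaves 2 residual degrees of freedom, called 45 genes (19 higher, 26 lower), with 3 replication, 1 mitosis, 3 class II, 3 leukocyte and 2 mesenchymal members, and with limma 0 erythroid and 0 collagen members (6 and 13 lower at unadjusted p under 0.05, and 4 and 9 lower by edgeR on all 10 libraries). With no filter on low values 22876 genes were tested and 211 called (74 higher, 137 lower), with 4 replication, 2 mitosis and 3 collagen members. Equal library totals gave 293 higher genes and 12 mitosis members, TMM scaling gave 11 mitosis members, and a filter of 10 gave 3. edgeR and DESeq2 called 12 leukocyte members each, and 577 and 609 genes in all. Leaving out 1 library gave 140 to 428 genes called, 37 to 248 higher and 103 to 180 lower, with 3 to 7 replication, 2 to 9 mitosis, 2 to 5 class II, 5 to 11 leukocyte, 4 to 5 erythroid, 3 to 6 mesenchymal and 1 to 6 collagen members. Fewer samples, fewer degrees of freedom or more genes tested are part of the construction of these settings, and otherwise the cause was not tested. Of the genes called in the main fit, 442 were called in the same direction by edgeR and 422 by DESeq2. Among 95 called named genes, no direction reversed in 1324 refits over the 14 alternatives, and 270 refits missed the threshold. For shorter lists the called count also moved: over the 14 alternatives it was 0 to 6 for endoplasmic reticulum chaperones (main 2), 2 to 9 for type 2 genes higher (main 3), 0 to 4 for club cell genes lower (main 1), 1 to 4 for fatty acid synthesis (main 2), 0 to 10 for ribosomal proteins (main 3), 0 to 4 for the respiratory chain and for immediate early genes (main 2 each) and 0 to 4 for fetal growth genes lower (main 3).

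The replicate block gave 454 genes called (191 higher, 263 lower), 427 of them shared with the 451. The correlation of deviations between same-numbered libraries was 0.0405 over 12143 genes. This 1 value cannot show whether same-numbered libraries shared a litter, day or batch, which the labels do not give. Depth limits the low genes: at 2282124 reads, P2 replicate 1 has a floor of 1.37 units. The called rises Mcm3, Lig1, Tpx2, Racgap1, Ccnb2 and Igfbp2 were under it in that library.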

Other observations

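Tight junction genes and fetal or signalling lists not described above held few calls. Of 21 tested claudin and tight junction genes, limma called 0 and edgeR 0, with 4 lower by each at unadjusted p under 0.05. In that list 10 genes (47.6%, against 23.4% of all genes) had both P7 libraries below both P2 libraries, and the median was -0.23. Spry4, a feedback inhibitor of receptor tyrosine kinase signalling, was at 18.7 and 10.9 at P2 and at 32.3 and 40.8 at P7, which missed the threshold by limma (adjusted p = 0.0511) and passed by edgeR (0.0354). Stbd1, a glycogen-binding protein, rose from 23.2 and 32.6 to 96.4 and 89.5 (log2 fold change 1.72, adjusted p = 0.000995). Klf9, a glucocorticoid-induced factor, was at 8.2 and 8.24 at P2 and at 19.6 and 19.3 at P7 (adjusted p = 0.0296), and was lost without P2 replicate 1 (0.0975), P2 replicate 2 (0.0705), P7 replicate 1 (0.156) or P7 replicate 2 (0.131). F3, the coagulation initiator tissue factor and a YAP target, fell by 1.13 from 44.2 and 41.5 to 22.6 and 15.9 (adjusted p = 0.0184, and 0.0932 without P2 replicate 1 and 0.154 without P7 replicate 2).

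A few genes differed widely between libraries of one age. Epcam was at 67.1 in P7 replicate 1 and at 354 in P7 replicate 2. Scgb3a1, an airway secretoglobin chosen after its values were seen, was at 136 and 213 at P2 and at 136 and 1.68 at P7. Hist1h2ao, a histone gene with near-identical copies that could share its reads, was at 13.7 and 79.1 at P2 and at 254 and 180 at P7 (adjusted p = 0.0362), and was lost without P2 replicate 1 (0.271), P7 replicate 1 (0.211) or P7 replicate 2 (0.113).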
